A study of Danio rerio with 10 samples.

Results

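The cell cycle genes described here are the rows of both deposited tables whose KEGG pathway annotation holds the term Cell cycle, leaving out symbols that begin with tgfb or myc. The rule found 129 of the 22202 genes in the caudal fin table and 128 of the 23511 genes in the ventricle table. All 128 were also in the fin table, and the additional fin member was *mcm6l*, which was not analysed in ventricles. By symbol they were sorted into 11 groups, among them cyclins and their kinases, replication origins, checkpoints, anaphase and the inhibitors that stop the cycle.

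Cells divide by passing through a fixed order of phases, in which cyclins rise and fall and switch on cyclin-dependent kinases (Cdks). D-type and E-type cyclins release E2f factors from the Rb protein at the entry to DNA synthesis, origins are licensed by the origin recognition complex and the Mcm helicase, and B-type cyclins with Cdk1 start mitosis. Checkpoint kinases halt the cycle when DNA is damaged or a chromosome is not attached, and the p21, p27, p57 and Ink4 families of proteins inhibit the Cdks. In zebrafish, amputated fins and injured hearts regrow through renewed division of cells that had been quiescent.

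RNA-seq was performed on *il11ra* mutants and their wild-type siblings, all adults, after an injury to each tissue. Caudal fin tissue was collected 24 hours post amputation (hpa) in 3 libraries per genotype, each from 1 animal, and consisted of the 2 bone segments next to the amputation plane. Whole ventricles were collected 96 hours post cryoinjury (hpci), a freezing injury of the heart, in 2 libraries per genotype, each pooled from 2 animals. The fish were of the Tüb/AB strain, and all mutants carried the same CRISPR-Cas9 germline allele of the interleukin-11 receptor gene, which was therefore mutated in every tissue and not only in the injured one. No uninjured samples were among the 10 libraries, so every value is from an injured animal.

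The deposited values are normalized counts, which are read counts divided by a size factor set within each tissue and rounded, so levels were not compared between the tables. The spacing of low values put the depth at an estimated 2964000 to 4699000 reads on genes in each fin library and 12862000 to 14293000 in each ventricle library. The highest single value was 3136 to 6719 in a fin library and 362628 to 600938 in a ventricle library, and whether the fin reads went through a further step before counting, such as removal of duplicates, is not given in the sources used here, so the depth is that of the deposited values. *il11ra*, on chromosome 10 of GRCz11 from 13305610 to 13396720, had 65, 80 and 57 normalized counts in wild-type fins against 3, 6 and 7 in mutant fins, and 107 and 189 in wild-type ventricles against 38 and 23 in mutant ventricles, so the libraries matched their labels. It fell by 3.48 on a log2 scale in fins (adjusted p = 0.000644) and had a log2 fold change of -2.23 in ventricles that did not pass the test (adjusted p = 0.306). Cardiomyocyte markers summed to 263217 to 507870 over 7 genes in ventricle libraries and to 14 to 161 over 2 genes in fin libraries. Keratinocyte markers summed to 8169 to 11519 over 8 genes in fins and to 2545 to 4754 over 4 genes in ventricles. As the tables were normalized apart, these sums are not on a common scale. A single mutant library stood apart for these genes in each tissue. Mutant fin 1, which also had the lowest estimated depth, was the lowest mutant for most genes that fell in fins, and mutant ventricle 1 had the highest value of the 4 ventricle libraries in 83 of 122 members tested. The share of all genes with that library highest was not computed. Called genes whose value moved by over 1.5 times without mutant fin 1 are also given without it, and several ventricle values without mutant ventricle 1. The tissues are mixtures of cell types, in which fewer dividing cells and less RNA per cell cannot be told apart.

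In mutant fins, cell cycle genes were lower more often than higher. Every gene whose mean over the libraries reached 10 normalized counts was fitted with limma after adding 1 and taking log2, and was called where its p, adjusted over all such genes by the Benjamini-Hochberg method, was under 0.05. Of the 121 members tested, 36 fell and 8 rose in mutants, and 77 did not pass the test, so that 36.4% were called in either direction beside 36.6% of all genes. The 36 that fell made up 29.8% of the members tested, beside 17% of all 16741 genes tested, and the 8 that rose made up 6.61%, beside 19.6%. The median log2 fold change was -0.24 over the members and -0.014 over all genes, and 91 members (75.2%) were below 0, beside 51.1% of all genes. In 58 members (47.9%, beside 26.8% of all genes) every mutant fin lay below every wild-type fin, and in 14 (11.6%, beside 26%) every mutant fin lay above. The members together took 1.22%, 1.19% and 1.18% of the normalized counts in wild-type fins 1, 2 and 3 and 0.910%, 1.04% and 1.04% in mutant fins 1, 2 and 3. With 3 libraries against 3, permuting the labels of a single gene exactly cannot give a two-sided p below 0.1.

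**Figure D1:**
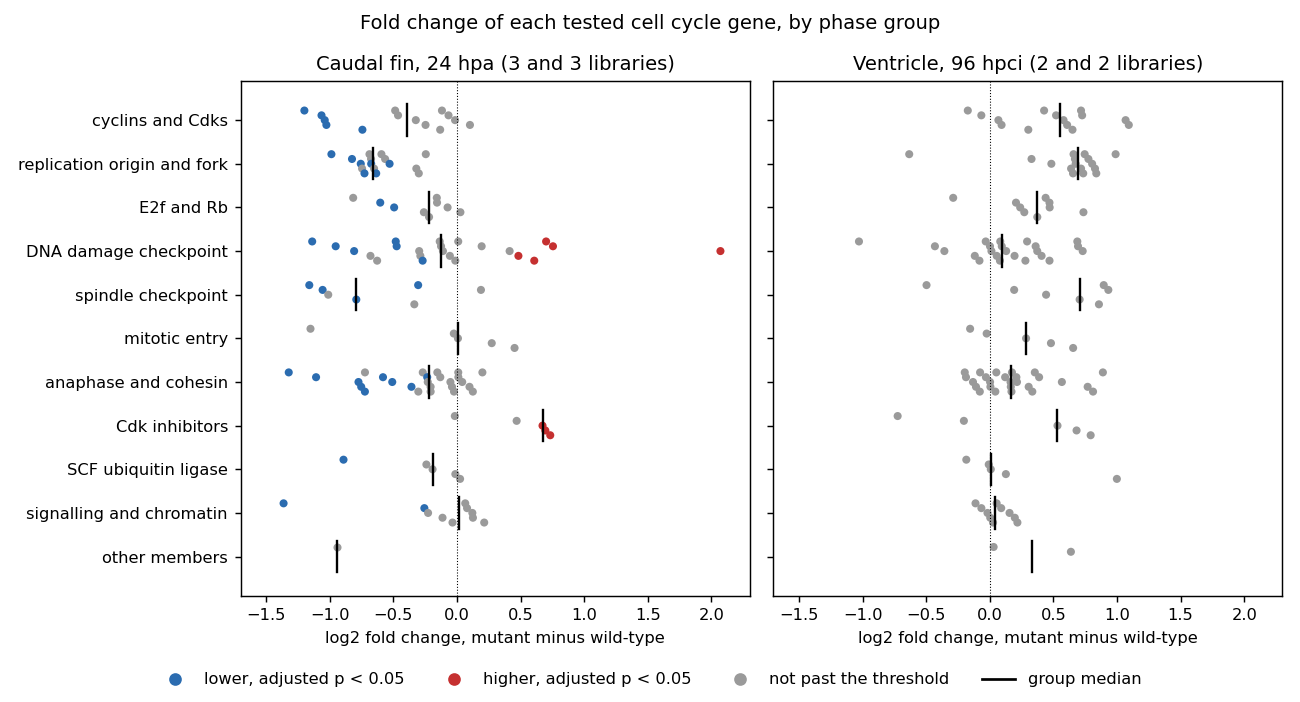
Log2 fold change of each tested cell cycle gene, mutant minus wild-type, in fins (left, 121 genes) and ventricles (right, 122 genes). Each point is a gene, rows are phase groups, black bars are group medians, and colours mark genes past an adjusted p of 0.05. In fins 36 points are marked lower and 8 higher, the latter among the DNA damage checkpoint genes and Cdk inhibitors, while in ventricles 0 are marked and most points lie right of 0.

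The 36 genes that fell lay on 21 chromosomes with at most 4 on any of them. All 36 were below every wild-type fin in each of the 3 mutant fins. A call at 3 libraries against 3 nearly requires this, so it adds no support of its own. Over all genes 6132 were called, and 8840 did not overlap between genotypes, of which 2757 were not called. Relative to the wild-type mean, the median log2 level of the 36 was -1.19 in mutant fin 1, -0.53 in mutant fin 2 and -0.49 in mutant fin 3. Mutant fin 1 was the lowest mutant for 33 of the 36. Without mutant fin 1, 35 members fell (28.7%, beside 13.9% of all genes) and 8 rose (6.56%, beside 16.1%). Without wild-type fin 1, 2 or 3 the members that fell numbered 15, 12 and 14, or 12.4%, 9.92% and 11.6% beside 11.8%, 9.90% and 10.7% of all genes, so that in these 3 fits the share that fell was close to that of all genes. Those that rose then numbered 7, 6 and 8, or 5.79%, 4.96% and 6.61% beside 16.3%, 15.1% and 15.6% of all genes. Of the 44 members called, 18 kept the call in all 6 fits that left out a fin library. The genes that lost the call whichever wild-type fin was left out were *ccna2*, *ccnb1*, *ccnb2*, *ccne2*, *cdk1*, *mcm2*, *chek1*, *skp2*, *bub1bb*, *mad2l1*, *cdc20*, *espl1* and *gsk3ba*, among the named genes followed through these fits. *bub1* lost it without wild-type fin 2 or 3, *rb1* without wild-type fin 1 or 2, and *ywhag2* without wild-type fin 2. Of the other members called, *gadd45ba* kept the call in 4 of the 6 fits and *dbf4*, *mcm6* and *prkdc* in 3. The members varied more among mutant fins than among wild-type fins, with a median SD of 0.16 against 0.11 on the log2 scale, beside 0.18 and 0.17 over all genes.

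Among the 14 cyclins and Cdks tested, 5 fell, 0 rose and the median log2 fold change was -0.39, or -0.23 without mutant fin 1. Over all genes tested 17% fell and 19.6% rose, and the counts of each group are to be read beside these shares. *ccnb1*, the B-type cyclin that starts mitosis, on chromosome 5 from 54711027 to 54714789, had 367, 302 and 350 normalized counts in wild-type fins and 90, 208 and 224 in mutants. *ccna2*, the A-type cyclin of DNA synthesis and early mitosis, on chromosome 14 from 46354648 to 46374870, had 440, 386 and 396 against 104, 269 and 282. *cdk1*, the kinase that both cyclins activate, had 401, 338 and 370 against 143, 260 and 286. In all 3 genes the genotypes did not overlap, and mutant fin 1 lay far below the other mutants. Log2 fold changes are given with the standard error (SE) of the fit, and *ccnb1* fell by 1.06 (SE 0.31, adjusted p = 0.0311), *ccna2* by 1.03 (SE 0.34, adjusted p = 0.0463) and *cdk1* by 0.74 (SE 0.24, adjusted p = 0.0417; limma, Benjamini-Hochberg). *ccnb2*, a second B-type cyclin, fell by 1.20 (adjusted p = 0.0492) and *ccne2*, an E-type cyclin of the entry to DNA synthesis, by 1.04 (adjusted p = 0.0466). Without mutant fin 1 the log2 fold changes were -0.65 for *ccnb1*, -0.56 for *ccna2*, -0.43 for *cdk1*, -0.69 for *ccnb2* and -0.57 for *ccne2*, with adjusted p between 0.00700 and 0.0337.

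The cyclins and kinases of early G1 phase did not pass the test in fins. *ccnd1*, the D-type cyclin that growth signals induce, had 479, 461 and 425 normalized counts in wild-type and 377, 417 and 467 in mutant fins, with overlapping genotypes and a log2 fold change of -0.12 (SE 0.10, adjusted p = 0.388). *ccnd2a* stood at 0.10, and the D-cyclin partners *cdk4* and *cdk6* at -0.13 and -0.49. *ccne1* had 168, 164 and 164 against 169, 162 and 160 and a log2 fold change of -0.01 (SE 0.10). *cdk2*, the partner of E-type cyclins, had 263, 257 and 242 against 141, 248 and 238, so that only mutant fin 1 was clearly apart.

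**Figure D2:**
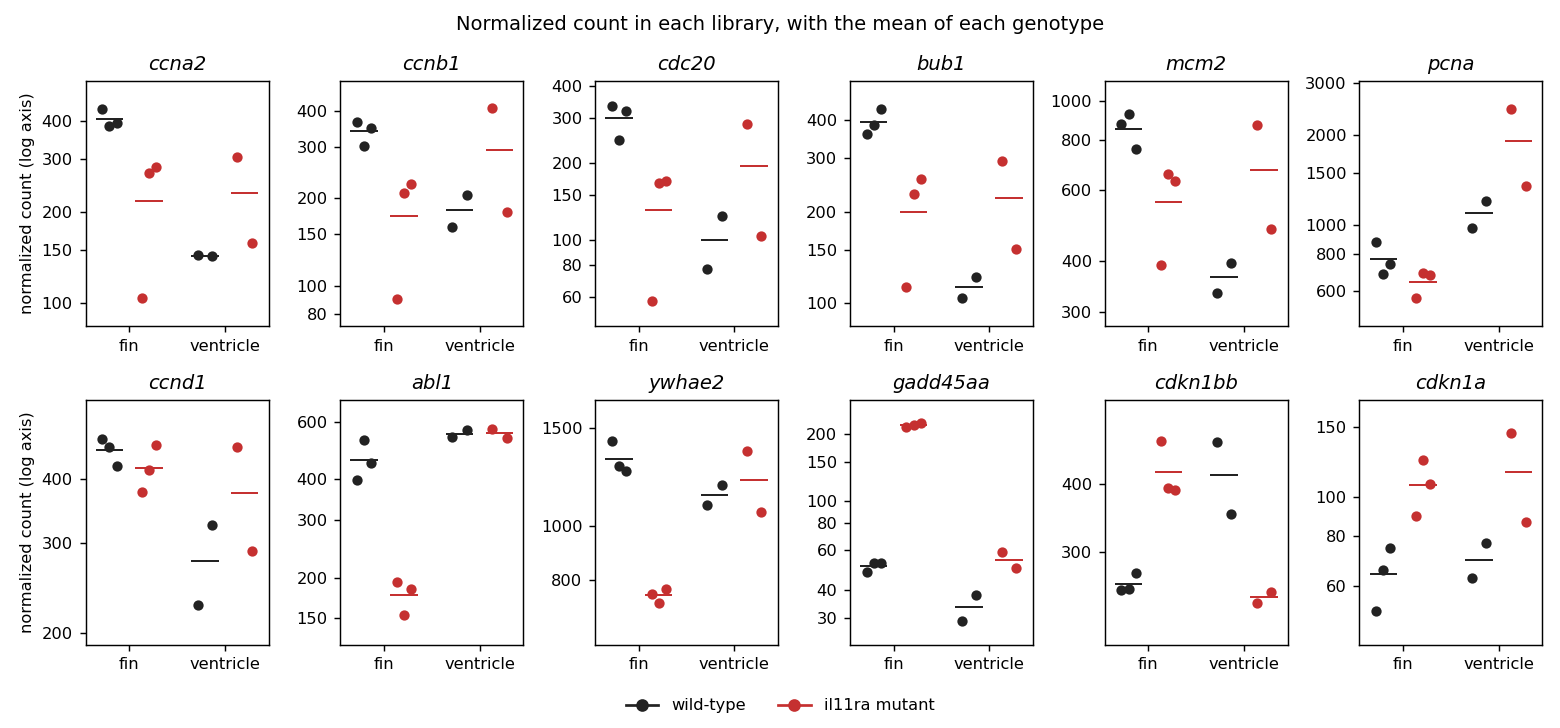
Normalized counts of 12 members in each library, on log axes that differ between panels. Black points are wild-type and red points *il11ra* mutant libraries, with a line at each genotype's mean, fins at the left and ventricles at the right of each panel. For *ccna2*, *ccnb1*, *cdc20*, *bub1* and *mcm2* the mutant fins lie below all wild-type fins and the highest ventricle value is that of mutant ventricle 1, whereas *gadd45aa*, *abl1* and *ywhae2* have mutant fins that lie close together.

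All 16 replication genes tested were below 0 in mutant fins, 7 of them fell, 0 rose, and the median log2 fold change was -0.66, or -0.34 without mutant fin 1. The origin recognition complex, which marks the sites where DNA copying starts, contributed 4 of the 7. *orc3*, on chromosome 17 from 49313504 to 49339681, had 357, 334 and 310 normalized counts in wild-type fins and 117, 188 and 214 in mutant fins, with no overlap, and fell by 0.99 log2 units (SE 0.21, adjusted p = 0.00899). *orc5* fell by 0.82 (adjusted p = 0.0115), *orc4* by 0.76 (adjusted p = 0.0121) and *orc2* by 0.67 (adjusted p = 0.0498; -0.40 without mutant fin 1, and a call kept in 1 of the 6 fits that left out a library), while *orc1* and *orc6* were at -0.59 (adjusted p = 0.0720) and -0.67 (adjusted p = 0.105). *orc3*, *orc4* and *orc5* remained past the threshold in each of the 6 fits that left out a fin library.

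The Mcm proteins form the ring-shaped helicase that unwinds DNA at the fork. *mcm2*, on chromosome 22 from 5632029 to 5655680, had 873, 924 and 757 normalized counts in wild-type fins and 391, 657 and 634 in mutant fins, with no overlap, and fell by 0.63 log2 units (SE 0.19, adjusted p = 0.0346; -0.39 without mutant fin 1). *mcm6* fell by 0.53 (adjusted p = 0.0307; -0.34 without mutant fin 1) and *dbf4*, the activating subunit of the Cdc7 kinase that fires origins, by 0.73 (adjusted p = 0.0411; -0.45 without it). *mcm3*, *mcm4* and *mcm5* were at -0.56, -0.30 and -0.32 and did not pass the test, nor did the licensing factor *cdc6* at -0.69 (adjusted p = 0.0771). *pcna*, the sliding clamp of the DNA polymerases, had 878, 685 and 741 against 568, 691 and 682, so its genotypes overlapped, and its log2 fold change was -0.24 (SE 0.12, adjusted p = 0.141).

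Of the 9 genes of the E2f and Rb group tested, 2 fell in mutant fins, close to the 17% of all genes that fell. *rb1*, the retinoblastoma protein that holds E2f factors inactive, had 647, 626 and 583 normalized counts in wild-type fins and 311, 463 and 467 in mutants and fell by 0.60 log2 units (SE 0.16, adjusted p = 0.0199). *e2f4*, which mostly acts as a repressor with the Rb-related proteins, had 352, 307 and 334 against 207, 249 and 250 and fell by 0.49 (SE 0.11, adjusted p = 0.0109). The genotypes did not overlap in either gene. The activator *e2f1* had 46, 83 and 50 against 16, 52 and 40, which overlapped, with a log2 fold change of -0.82 (SE 0.44, adjusted p = 0.175). Also close to that share, 1 of 5 genes fell in the SCF ubiquitin ligase group. This was *skp2*, the subunit that marks the Cdk inhibitor p27 for breakdown, with 208, 211 and 184 against 70, 131 and 136 and a log2 fold change of -0.89 (SE 0.24, adjusted p = 0.0240; -0.58 without mutant fin 1).

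The DNA damage checkpoint group of 23 genes, which also holds the ywha genes, went in both directions in mutant fins. In it 6 fell, 5 rose and the median log2 fold change was -0.12. The 6 were *chek1*, *prkdc* and the ywha genes *ywhae2*, *ywhag2*, *ywhaqa* and *ywhah*, and the 5 were *mdm2* and gadd45 genes. *gadd45aa*, on chromosome 2 from 10280645 to 10284572, is an orthologue of a human stress-induced inhibitor of Cdk1 and had the largest rise and the smallest adjusted p of all members. Its normalized counts were 48, 53 and 53 in wild-type fins and 214, 219 and 223 in mutant fins, so that the spread within each genotype was small beside the difference. It rose by 2.07 log2 units (SE 0.12, adjusted p = 0.000128), and by 2.09 without mutant fin 1. *gadd45bb* had 254, 219 and 286 against 461, 376 and 443 and rose by 0.75 (adjusted p = 0.00382), *gadd45ab* rose by 0.70 (adjusted p = 0.00862) and *gadd45ba* by 0.48 (adjusted p = 0.0144). *gadd45ga* had 131, 131 and 129 against 226, 117 and 199 and did not pass the test (adjusted p = 0.184).

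*mdm2*, a ubiquitin ligase of the DNA damage response, had 378, 355 and 360 normalized counts in wild-type fins and 659, 503 and 517 in mutants and rose by 0.61 log2 units (SE 0.11, adjusted p = 0.00591). *chek1*, the checkpoint kinase that acts on stalled replication forks, had 150, 124 and 135 against 31, 80 and 92 and fell by 1.14 (SE 0.37, adjusted p = 0.0429; -0.66 without mutant fin 1). *prkdc*, the DNA-dependent protein kinase of double-strand breaks, fell by 0.48 (adjusted p = 0.0402; -0.30 without mutant fin 1). The kinases *atm* and *atr*, which start the damage response, were at -0.01 (adjusted p = 0.936) and -0.29 (adjusted p = 0.107).

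The ywha genes of the KEGG term, counted in the same group, encode 14-3-3 proteins that bind phosphorylated partners such as the Cdc25 phosphatases. *ywhae2*, on chromosome 7 from 72012397 to 72029683, had 1417, 1279 and 1257 normalized counts in wild-type fins and 755, 729 and 770 in mutant fins, which lay close together. It fell by 0.81 log2 units (SE 0.08, adjusted p = 0.000571), and by 0.81 without mutant fin 1. *ywhag2* fell by 0.95 (adjusted p = 0.0132), *ywhaqa* by 0.47 (adjusted p = 0.00976) and *ywhah* by 0.27 (adjusted p = 0.0474, kept in 0 of the 6 fits that left out a library), while the other ywha members did not pass the test.

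The 7 spindle checkpoint genes, whose products delay anaphase until every chromosome is attached, had a median log2 fold change of -0.79 in mutant fins, or -0.51 without mutant fin 1, and 4 fell and 0 rose. *bub1bb*, the BubR1 kinase, had 148, 148 and 134 normalized counts in wild-type fins and 32, 82 and 97 in mutants and fell by 1.16 log2 units (SE 0.37, adjusted p = 0.0401). *bub1*, the kinase that brings the checkpoint to kinetochores, had 359, 384 and 434 against 113, 229 and 255 and fell by 1.06 (SE 0.28, adjusted p = 0.0204). *mad2l1*, the Mad2 protein that binds Cdc20, fell by 0.79 (adjusted p = 0.0298), and *mad1l1*, its partner at the kinetochore, by 0.30 (adjusted p = 0.0491, kept in 1 of the 6 fits that left out a library). The groups were apart in all 4, and without mutant fin 1 the log2 fold changes of *bub1bb*, *bub1* and *mad2l1* were -0.68, -0.69 and -0.51. *ttk*, the Mps1 kinase, was at -1.01 and lay just outside the threshold (adjusted p = 0.0560). *mad2l2*, which acts mainly in DNA repair, was at 0.19.

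None of the 5 mitotic entry genes passed the test in fins. *plk1*, the Polo kinase that drives entry into mitosis, had 556, 452 and 552 normalized counts in wild-type fins and 110, 311 and 367 in mutants, with no overlap, and a log2 fold change of -1.15 (SE 0.39, adjusted p = 0.0517). Without mutant fin 1 it was -0.61 (adjusted p = 0.0121), past the threshold. *wee1*, the kinase that restrains Cdk1, had 442, 423 and 501 against 499, 406 and 470, and *cdc25b*, the phosphatase that activates Cdk1, had 366, 360 and 395 against 316, 378 and 414, so the genotypes overlapped in both.

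In the anaphase and cohesin group 9 of 26 genes fell, 0 rose and the median log2 fold change was -0.22. *cdc20*, which activates the anaphase-promoting complex (APC/C), on chromosome 2 from 19217586 to 19234469, had 333, 246 and 320 normalized counts in wild-type fins and 58, 167 and 170 in mutants and fell by 1.32 log2 units (SE 0.38, adjusted p = 0.0291). *espl1*, the separase that cuts cohesin, had 328, 370 and 355 against 85, 202 and 248 and fell by 1.11 (SE 0.34, adjusted p = 0.0372). Both had mutant fin 1 far below the other mutants and were at -0.81 and -0.64 without it. Among the subunits of the APC/C, the ubiquitin ligase that marks securin and B-type cyclins for breakdown, *anapc4* fell by 0.77 (adjusted p = 0.00630), *anapc1* by 0.75 (adjusted p = 0.0128), *anapc5* by 0.72 (adjusted p = 0.00312), *anapc2* by 0.58 (adjusted p = 0.00471) and *cdc23* by 0.51 (adjusted p = 0.00933).

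These 5 APC/C genes remained past the threshold in each of the 6 fits that left out a fin library, whereas *cdc20* and *espl1* did so in 3 of 6. *anapc5* had 279, 247 and 263 normalized counts in wild-type fins and 145, 179 and 154 in mutants, and mutant fin 1 lay close to the other mutants. The subunits *cdc16* and *cdc27* were at -0.27 and -0.13 and did not pass the test. *fzr1a*, the Cdh1 activator that keeps the APC/C active in G1 phase, had 340, 304 and 380 against 398, 390 and 384 and did not pass the test (log2 fold change 0.20, adjusted p = 0.148). Among the cohesin genes, which hold sister chromatids together, *stag1b* fell by 0.36 (adjusted p = 0.0265, kept in 2 of the 6 fits that left out a library) and *smc1al* by 0.23 (adjusted p = 0.0451, kept in 0 of the 6), and *smc3* and *rad21a* were at -0.23 and 0.01.

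The Cdk inhibitors were the only group with rises and no falls, 3 of 5 tested genes in mutant fins. *cdkn1bb*, an orthologue of the p27 inhibitor gene on chromosome 25 from 2282265 to 2287189, had 256, 257 and 275 normalized counts in wild-type fins and 480, 393 and 390 in mutants and rose by 0.67 log2 units (SE 0.11, adjusted p = 0.00297). *cdkn2c*, an Ink4 inhibitor of Cdk4 and Cdk6, had 118, 107 and 142 against 190, 203 and 199 and rose by 0.69 (SE 0.13, adjusted p = 0.00608). *cdkn1a*, the p21 gene, had 52, 66 and 75 against 90, 124 and 108 and rose by 0.73 (SE 0.20, adjusted p = 0.0224). The genotypes were apart in all 3, but *cdkn1a* lost the call without wild-type fin 1 or 2 or mutant fin 2 or 3. *cdkn1ba*, the second p27 orthologue, had 453, 377 and 391 against 401, 420 and 383 and a log2 fold change of -0.02, and *cdkn1ca*, the p57 gene, had 9, 18 and 19 against 15, 20 and 29.

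Of the 10 signalling and chromatin genes 2 fell, close to the 17% of all genes that fell. *abl1*, a tyrosine kinase that KEGG places at the Rb step, on chromosome 5 from 72145468 to 72168783, had 398, 529 and 448 normalized counts in wild-type fins and 194, 153 and 185 in mutants, with no overlap, and had the largest fall of all members at 1.36 log2 units (SE 0.14, adjusted p = 0.000606; -1.43 without mutant fin 1). *gsk3ba*, a kinase that marks D-type cyclins for breakdown, fell by 0.26 (adjusted p = 0.0327), a call it kept in only 1 of the 6 fits that left out a library, that without mutant fin 1. The Smad genes of the term, *smad2*, *smad3a* and *smad4a*, were at 0.13, 0.12 and 0.21 and did not pass the test. A total of 8 fin members did not reach the mean of 10, with values of at most 15, and *si:dkey-222b8.1*, annotated as a homologue of the Smad family, had 15, 14 and 14 against 1, 1 and 6 among them.

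A further 28 members (23.1%, beside 16.5% of all genes) had fins that did not overlap between genotypes without passing the test, 22 with lower and 6 with higher mutants. *chek2*, a checkpoint kinase of double-strand breaks, had 187, 192 and 170 normalized counts in wild-type fins and 77, 159 and 120 in mutants (log2 fold change -0.68, adjusted p = 0.0563). *cdc45*, a helicase subunit, had 221, 240 and 192 against 74, 175 and 165 (-0.75, adjusted p = 0.0869). In both, as in *ttk* and *plk1*, the mutant libraries were more spread than the wild-type ones. *tfdp1a*, the dimer partner of E2f factors, had 425, 406 and 402 against 328, 370 and 362 (-0.22, adjusted p = 0.0750), and *rbl1*, the Rb relative p107, had 264, 328 and 270 against 241, 235 and 240 (-0.26, adjusted p = 0.0915). Among the 6 higher were *fzr1a*, *mad2l2*, *smad2*, *stag2a* and *pkmyt1*, the last a kinase that restrains Cdk1 with 108, 120 and 119 against 147, 141 and 132 (0.27, adjusted p = 0.105).

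The mean level of each group by library placed mutant fin 1 lowest in the groups with many falls. Level here is the mean over a group of each gene's log2 deviation from its own mean over the fin libraries. For the replication genes it was 0.39, 0.34 and 0.20 in wild-type fins 1, 2 and 3, and -0.82, -0.01 and -0.10 in mutant fins 1, 2 and 3. For the spindle checkpoint it was 0.30, 0.33 and 0.33 against -0.86, -0.13 and 0.03, and for the cyclins and Cdks 0.24, 0.25 and 0.24 against -0.66, -0.05 and -0.02. In these 3 groups every mutant fin was below every wild-type fin, and mutant fins 2 and 3 lay nearer to the wild-type fins than to mutant fin 1. For the Cdk inhibitors it was -0.42, -0.25 and -0.09 against 0.15, 0.29 and 0.32, and there mutant fin 1 was the mutant nearest to wild-type. The DNA damage checkpoint genes, whose members went both ways, lay between -0.08 and 0.05 in all 6 fins.

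**Figure D3:**
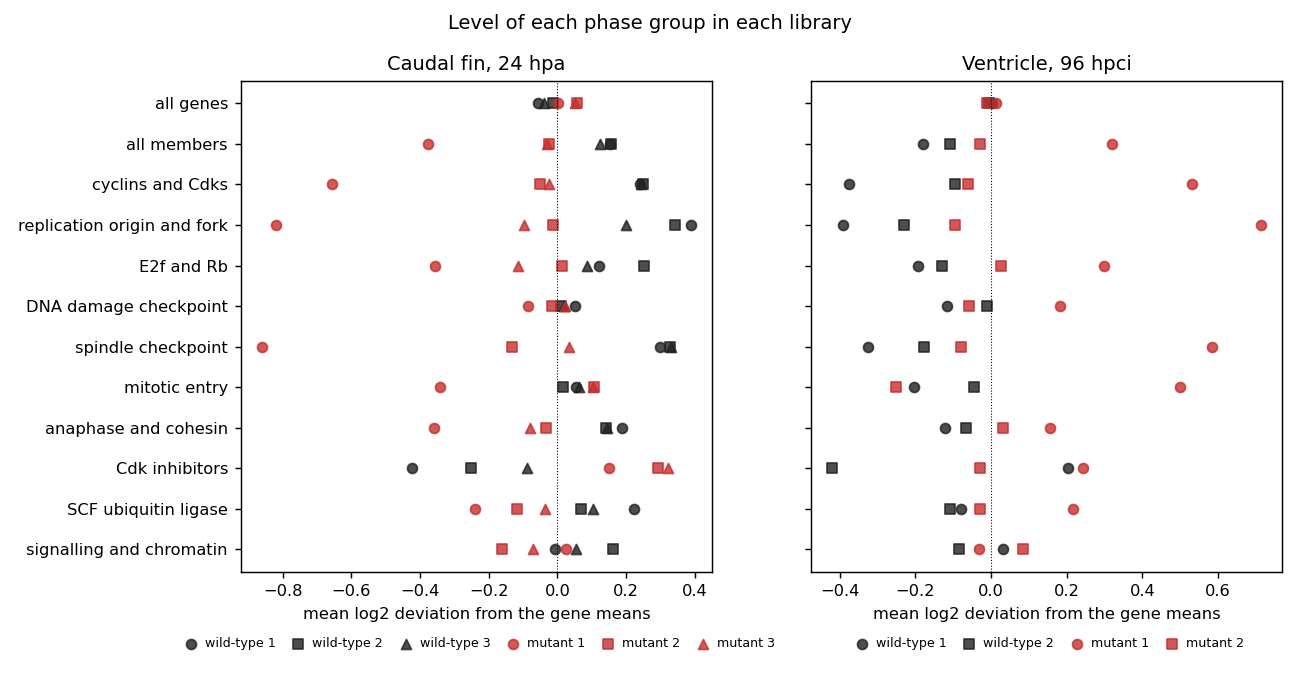
Mean log2 deviation of each phase group from the gene means of its tissue, for each library. Black symbols are wild-type and red symbols mutant libraries, with 1 symbol shape per replicate number, and the top row is the mean over all genes tested. Mutant fin 1 lies far left in the groups of cyclins, replication, spindle checkpoint and anaphase, beside all genes at about 0. Mutant ventricle 1 lies far right in the groups of cyclins, replication, spindle checkpoint and mitotic entry, and less so in anaphase (0.16).

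Several members are pairs of duplicated zebrafish genes, and the ratio of a pair within a library does not depend on the size factor. Over 13 pairs chosen after the values were seen, 9 had ratios that did not overlap between genotypes in fins. As single genes, 59.5% of the members and 52.8% of all genes tested did not overlap in fins. The share over other gene pairs was not computed. The log2 ratio of *gadd45ab* to *gadd45aa* was 1.23, 1.43 and 1.62 in wild-type fins and 0.08, 0.11 and -0.03 in mutants, so *gadd45aa* reached the level of its partner on the scale of normalized counts, which are not corrected for gene length. That of *ccne2* to *ccne1* was 0.50, 0.52 and 0.49 against -1.50, 0.02 and -0.07, and that of *ywhae2* to *ywhae1* 1.12, 1.19 and 1.07 against 0.44, 0.46 and 0.46. The ratio of *cdkn1bb* to *cdkn1ba* was -0.82, -0.55 and -0.51 against 0.26, -0.10 and 0.03, with every mutant above every wild-type fin. Permuting the labels of each of these 4 exactly gave a two-sided p of 0.1, the smallest possible, and 0.144 after Benjamini-Hochberg adjustment over the 13 pairs, so none passed.

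**Figure D4:**
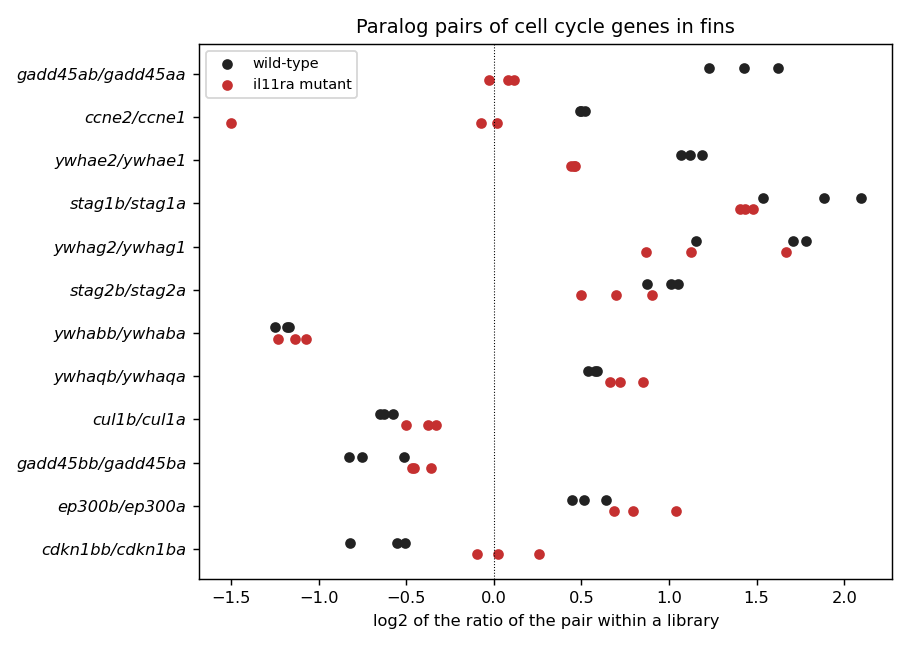
Log2 ratio of the normalized counts of 12 paralog pairs within each fin library, ordered by the mutant minus wild-type difference. Of the 13 pairs, *rad21b* to *rad21a* is not drawn, and its ratios overlapped between genotypes in fins. Black points are wild-type and red points mutant fins. The pairs with *gadd45aa*, *ccne1* and *ywhae1* as the second gene have mutant ratios below all wild-type ratios, and the *cdkn1bb* pair has them above.

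The share of calls in each direction was not the same across the other KEGG terms that members carry. Over all members tested 29.8% fell and 6.61% rose, beside 17% and 19.6% of all genes. Of 43 tested members that KEGG also places in oocyte meiosis, 18 fell and 0 rose, and of 20 in ubiquitin mediated proteolysis, 7 fell and 1 rose. Of 25 members of FoxO signaling 3 fell and 7 rose and of 7 in apoptosis 0 fell and 4 rose. The 4 were gadd45 genes. Only 8 members rose in all, so the rises of these terms overlap and are not separate observations. Shares over all genes of each term were not computed.

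Proliferation genes outside the KEGG term gave the same direction in fins. On a list of 88 symbols, drawn up with earlier results of these data known, 85 symbols were found in fins. Some symbols stood for more than 1 gene, so 87 genes were tested. Of these 34 fell and 0 rose, beside 17% and 19.6% of all genes. A total of 86 were below 0, beside 51.1% of all genes, and the median log2 fold change of the list was -0.77. *mki67*, the Ki-67 antigen of dividing cells, had 1294, 1286 and 1320 normalized counts in wild-type fins and 351, 768 and 872 in mutants and fell by 1.07 log2 units (SE 0.30, adjusted p = 0.0250). *foxm1*, a transcription factor of mitotic genes, had 361, 352 and 387 against 74, 184 and 191 and fell by 1.41 (SE 0.33, adjusted p = 0.0129). Mutant fin 1 was again the lowest in both, and without it they were at -0.67 and -0.96. Without wild-type fin 1, 2 or 3 the genes that fell on this list numbered 4, 3 and 4, or 4.60%, 3.45% and 4.60% of the 87, which was below the 11.8%, 9.90% and 10.7% of all genes. Without mutant fin 1 they numbered 46 (52.9%, beside 13.9% of all genes), with a median of -0.39.

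Leukocyte markers moved with genotype beside these changes in fins. All 8 tested rose in mutant fins, their summed normalized counts were 2717 to 3271 in wild-type and 5445 to 6205 in mutant fins, none was at 0, and their part in the changes of the cell cycle genes was not tested. Of 7 osteoblast markers tested in fins 3 fell and 1 rose, and of 8 keratinocyte markers 1 rose. Of 8 blastema markers 2 rose, of 6 endothelial markers 2 rose and of 6 erythrocyte markers 0 passed. Over all genes 17% fell and 19.6% rose, so 1 or 2 rises among 8 markers were near the share of all genes. The troponin gene *tnnt2a*, a marker of cardiomyocytes and other striated muscle, had 61, 74 and 57 normalized counts in wild-type and 0, 6 and 5 in mutant fins.

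In ventricles 0 of 122 members passed the test, as did 0 of all 17411 genes tested (0%; limma, Benjamini-Hochberg, also with robust moderation). At an unadjusted p under 0.05, 13 members (10.7%, beside 3.07% of all genes) were higher and 2 (1.64%, beside 3.66%) lower, or 15 in all (12.3%, beside 6.74%). The median log2 fold change was 0.26 over the members and 0.01 over all genes, and 27 of the 122 members (22.1%, beside 48.6% of all genes) were below 0. In 48 members (39.3%, beside 18.2% of all genes) both mutant ventricles lay above both wild-type ventricles, and in 11 (9.02%, beside 17.1%) both lay below. An exact permutation of the 4 ventricle labels cannot give a two-sided p under 0.33. Without mutant ventricle 1 the median was 0.09, and without mutant ventricle 2 it was 0.41.

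Mutant ventricle 1 was above both wild-type ventricles in 85 of 122 members and below both in 22. Mutant ventricle 2 was above both in 57 and below both in 28. The shares over all genes were not computed for these counts by library. *mcm2* had 335 and 396 normalized counts in wild-type ventricles and 868 and 482 in mutants (log2 fold change 0.83, SE 0.30, adjusted p = 0.703, or 0.40 without mutant ventricle 1), and *pcna* had 981 and 1208 against 2457 and 1357 (0.75, SE 0.31, adjusted p = 0.741, or 0.32 without it). *ccnb1* had 159 and 205 against 408 and 179, so mutant ventricle 2 lay between the wild-type libraries and the log2 fold change of 0.58 became -0.01 without mutant ventricle 1. *bub1bb* had 58 and 53 against 137 and 83 (0.93, SE 0.30, adjusted p = 0.652, or 0.57 without it). The group medians were 0.55 for the cyclins and Cdks, 0.70 for replication, 0.71 for the spindle checkpoint, 0.37 for E2f and Rb and 0.16 for anaphase and cohesin. Without mutant ventricle 1 they were 0.10, 0.29, 0.34, 0.28 and 0.07 in the same order.

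The largest ventricle fold change among the cyclins was that of *ccnb3*, a B-type cyclin, with 29 and 39 normalized counts in wild-type and 87 and 61 in mutant ventricles (log2 fold change 1.09, SE 0.32, adjusted p = 0.597, or 0.84 without mutant ventricle 1). In replication it was that of *cdc6*, with 40 and 53 against 108 and 79 (0.99, SE 0.29, adjusted p = 0.601, or 0.77 without mutant ventricle 1). Both genes had the 2 mutant libraries above the 2 wild-type libraries. *skp2* had 34 and 27 against 90 and 42, and its log2 fold change was 0.46 without mutant ventricle 1, and *pttg1*, the securin that holds separase inactive, had 13 and 31 against 47 and 31, so that its genotypes touched. The lowest replication gene was *orc6*, with 136 and 104 against 91 and 64 (-0.63, SE 0.28, adjusted p = 0.752), the only 1 of the 16 below 0. *mad2l2* had 32 and 38 against 33 and 18, and *cdkn1ca* had 170 and 28 against 122 and 120, where the wild-type libraries were farther apart from each other than from the mutants. The 6 ventricle members under the mean of 10 had values of at most 14.

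The proliferation list outside the KEGG term had 86 of 87 genes above 0 in ventricles, beside 8943 of all 17411 genes. Of the list, 30 genes were higher at an unadjusted p under 0.05 (limma), beside 3.07% of all genes, and 0 passed the adjusted threshold. The median log2 fold change of the list was 0.68, or 0.28 without mutant ventricle 1 and 1.09 without mutant ventricle 2. Summed cardiomyocyte markers were 263217 in mutant ventricle 1 and 425924 to 507870 in the other ventricle libraries, and summed leukocyte markers were 18311 beside 11313 to 12268, and their part in the level of the cell cycle genes was not tested. None of the 7 cardiomyocyte or 9 leukocyte markers tested was at 0 in a ventricle library.

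Several named genes had mutant ventricle 2 outside the wild-type range as well. *ccnd2a*, a D-type cyclin, had 244 and 266 normalized counts in wild-type ventricles and 428 and 411 in mutants, where the mutant libraries lay close together, with a log2 fold change of 0.72 (SE 0.18) and the smallest adjusted p of the ventricle members, 0.490. *ccne1* had 28 and 30 against 83 and 46 (1.07, SE 0.36, or 0.65 without mutant ventricle 1). Lower in both mutant ventricles were *cdkn1bb* with 478 and 352 against 242 and 254 (-0.72, SE 0.21, adjusted p = 0.607) and *gadd45ga* with 5150 and 4250 against 1809 and 2908 (-1.03, SE 0.28, adjusted p = 0.576). *cdkn1a*, with 63 and 77 against 145 and 87, and *gadd45aa*, with 29 and 38 against 59 and 50, had both mutant ventricles above the wild-type ones. *abl1* had 540 and 567 against 573 and 537 and a log2 fold change of 0.00 (SE 0.17).

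The difference between the tissues in the effect of genotype was tested in 1 limma fit over all 10 libraries. In it each effect is a difference within its own table, but all groups share 1 spread per gene, which is a limit. The median SD of the members on the log2 scale was 0.14 among wild-type and 0.27 among mutant ventricles. It was 0.11 and 0.16 in fins, so the fit lends the ventricles part of the smaller spread of the fins. Over 121 members the fin effect was below the ventricle effect in 28 (23.1%, beside 6.89% of 14520 genes tested) and above it in 3 (2.48%, beside 7.16%), after Benjamini-Hochberg adjustment. The largest differences below were *bub1bb* at -2.09 (fin -1.16, ventricle 0.93, adjusted p = 0.0387), *bub1* at -1.95, *skp2* at -1.89, *espl1* at -1.88 and *ttk* at -1.87. The 3 above were *gadd45ga* at 1.44 (adjusted p = 0.0340), *cdkn1bb* at 1.40 (fin 0.67, ventricle -0.72, adjusted p = 0.00531) and *gadd45aa* at 1.38 (adjusted p = 0.0111). Of the 36 members that fell in fins 35 (97.2%) were above 0 in ventricles, beside 94 of all 121 (77.7%). This count depended on mutant ventricle 1. Without it most of the 36 were still above 0, but *orc2* was at -0.20, *ywhae2* at -0.10, *prkdc* at -0.06 and *abl1* at -0.04. Also below 0 were then *ywhaqa* at -0.02, *stag1b* at -0.02, *ccnb1* at -0.01 and *anapc5* at -0.01. *cdc23*, at -0.03 with all libraries, was at -0.22. The share of all 121 members above 0 without mutant ventricle 1 was not set beside this.

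Counts from this fit depended on single libraries. Without a fin library the members with the fin effect below numbered between 5 and 25. Without a ventricle library only 1 library remained in a group. The counts then moved widely in both directions and are not given. With trimmed-mean (TMM) size factors the members with the fin effect below numbered 18. The shares of all genes in these alternative fits are not given here, so these counts are not set against a background. The fins were taken at 24 hpa and the ventricles at 96 hpci, so that tissue, injury and time cannot be told apart in this comparison. The difference for *cdkn1bb* was between 1.18 and 1.62 in every fit that left out a library, and that for *abl1* (-1.37, adjusted p = 0.00531) stood beside a ventricle effect of 0.00.

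**Figure D5:**
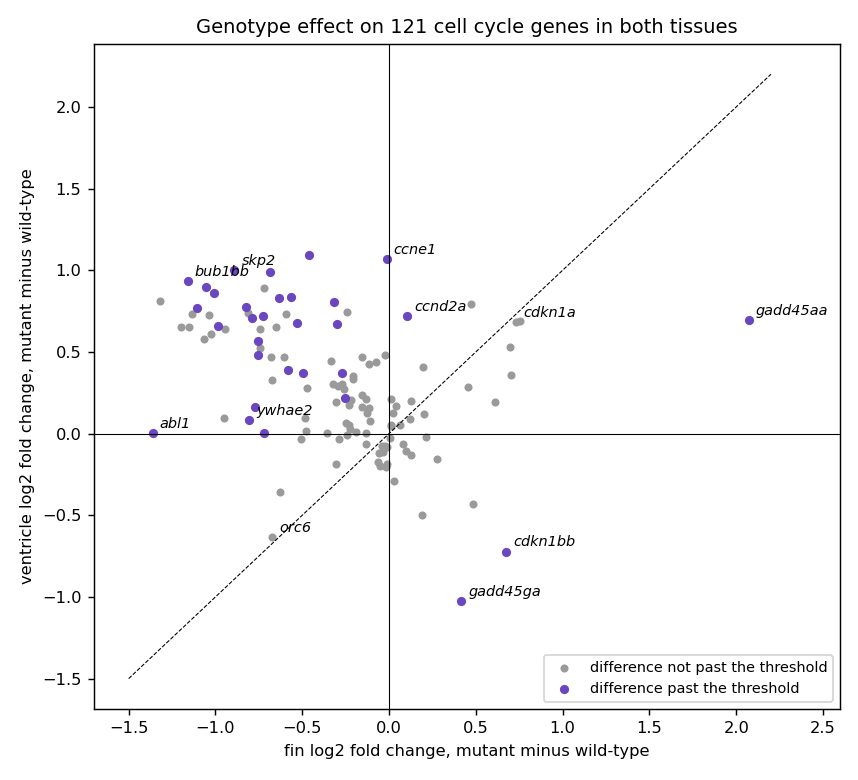
Log2 fold change in ventricles against that in fins, mutant minus wild-type, for the 121 members tested in both. Purple points are the 31 members whose effects differed between tissues at an adjusted p under 0.05, grey points the others, and the dashed line marks equal effects. Most points lie at the upper left, with 75 members below 0 in fins and above 0 in ventricles, and *cdkn1bb* and *gadd45ga* lie at the lower right.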

How the data were processed

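Libraries were grouped by the genotype, tissue, time and replicate number in their labels. Per the labels, the authors' processing notes name FastQC, Trimmomatic 0.39, STAR 2.7.3a, Subread featureCounts 1.6.5 and DESeq2 1.26 with GRCz11 (danRer11). Each deposited table holds normalized counts (unit: signal), which the authors obtained by dividing reads per gene by a size factor for each library of that tissue and rounding. More than 1 read number can give the same value, so tests on counts were not used. Strand and multimapping settings are not given in the sources used here, so overlapping genes and near-identical copies are uncertain. Unused columns numbered 0.

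Values were fitted as log2 (normalized count + 1) with limma 3.58.1 in R 4.3.3 (trended empirical Bayes, mean of at least 10, Benjamini-Hochberg over all genes tested, threshold 0.05) and checked on simulated data, as was the depth estimate. P-values measure the spread between these libraries. Alternatives were pseudocounts of 0.1 and 10, no filter or a mean of at least 50, size factors from a trimmed mean (TMM) or from the upper quartile of those values, robust moderation, a minimum log2 fold change of 1, a replicate block and each library left out. Python 3.11.15, pandas 2.3.3 and matplotlib 3.10.9 made tables and figures.

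Members and lists were chosen with earlier results of these data known. Genes named were 28 core members in both tissues, the 3 largest rises and falls per group past the threshold in fins, the extremes per group in ventricles and the 5 largest tissue differences each way. Other names were chosen after their values were seen. A RefSeq promoter table was not used here, so no motif was searched. Some members and a list tied to them are not reported here.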

Additional observations from a re-analysis of the deposited data

Results flagged for a closer look

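The effect of genotype differed between fins and ventricles in 31 members by the test of the difference itself (limma over all 10 libraries, Benjamini-Hochberg). In 28 (23.1%, beside 6.89% of all genes tested) the fin effect was below the ventricle effect. In 3 (2.48%, beside 7.16%) it was above. These counts depended on single libraries and on the replicate block, and tissue, injury and time cannot be told apart. The values are log2 fold changes in fins minus those in ventricles.

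The 3 above were *gadd45ga* at 1.44, *cdkn1bb* at 1.40 and *gadd45aa* at 1.38. Of the spindle checkpoint, *bub1bb* was at -2.09, *bub1* at -1.95, *ttk* at -1.87 and *mad2l1* at -1.50. Replication held 10 of the 28, with *cdc6* at -1.68, *orc3* at -1.64, *orc5* at -1.60, *mcm2* at -1.46, *dbf4* at -1.44, *mcm3* at -1.40, *orc4* at -1.24, *mcm6* at -1.20, *mcm5* at -1.12 and *mcm4* at -0.97.

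Among the cyclins *ccnb3* was at -1.56, *ccne1* at -1.08 and *ccnd2a* at -0.61, with fin effects of -0.01 for *ccne1* and 0.10 for *ccnd2a*. In the anaphase group *espl1* was at -1.88, *anapc1* at -1.32, *anapc2* at -0.97, *anapc4* at -0.94 and *anapc5* at -0.73. The others were *skp2* at -1.89, *abl1* at -1.37, *ywhae2* at -0.89, *e2f4* at -0.87, *ywhah* at -0.64 and *gsk3ba* at -0.47.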

How the results depend on the processing

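No result changed direction past the threshold under any alternative. With a change of 1 log2 unit or more also required, the cell cycle genes that fell in fins numbered 10 in place of 36, those that rose 1 in place of 8, and the proliferation list 13 in place of 34. With robust moderation the proliferation list had 20. Leaving out 1 library at a time gave 12 to 40 members that fell in fins (at the low end 9.92%, beside 9.90% of all genes) and 6 to 8 that rose, 3 to 46 genes that fell on the proliferation list, and 2 to 52 members with the fin effect below the ventricle effect and 2 to 4 above. With TMM factors 18 members had the fin effect below, in place of 28. Shares of all genes are not given for the counts at 1 log2 unit, with robust moderation or with TMM factors. Those counts are therefore not set against a background. In ventricles 0 members and 0 genes of the proliferation list passed in either direction under every alternative run.

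Same-numbered libraries deviated together with r of 0.03, 0.09 and -0.08 in fins and -0.19 in ventricles. With 2 libraries per genotype, every ventricle pair is bound to give 0.19 or -0.19, so r there cannot show whether samples were paired. In fins, differently numbered pairs spanned -0.11 to 0.09, so the numbers showed no pairing, which does not exclude one. With the replicate number as a block, 37 members fell and 8 rose in fins, 39 genes of the proliferation list fell, 0 members passed in ventricles, and the tissue difference had 2 members below and 1 above. Shares of all genes with this block are not given either. A crossed block in ventricles, chosen after seeing the data, gave 0 calls. Depth limits the genes under about 10 normalized counts, where 3 reads are worth 2.41 to 4.04 units in fins.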
